A study of Mus musculus with 2 samples.

Results

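The clade B serpins Serpinb1a, Serpinb2, Serpinb3a, Serpinb5, Serpinb6a and Serpinb9 were followed in dividing cells of the mouse corneal epithelium. They were 6 of the 26 features named Serpinb among 31053 genes, and they were chosen because earlier results of these data showed them, so their levels by cell class are described without a test. The cells came from CycB1-GFP mice, in which green fluorescent protein reports Cyclin B1, and were sorted alive and GFP-positive from peeled epithelium. Single-cell libraries were made with 10x Genomics 3′ chemistry. The labels give 1 group, CycB1-GFP, of 2 replicates, with no untreated or unsorted control, and do not say whether the replicates came from separate animals or give an age. The sort on the reporter enriches for cells late in the cycle, so nothing here compares dividing with resting cells.

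Serpins are proteins of one fold, most of which trap a protease by offering it a loop to cut. Those of clade B lack a classical secretion signal and act largely inside the cell, where they restrain proteases that leak from granules or lysosomes or enter from immune cells. In mice their genes form multigene clusters with many recent copies, and several members are typical of stratified epithelia. Here 2 chromosomes carried all 26 features. The cluster on chromosome 1 (GRCm38, 106861173 to 107610484) held 11 of them, with Serpinb5, Serpinb3a and Serpinb2 in that order, and the cluster on chromosome 13 (32842092 to 34002794) held 15, with Serpinb1a, Serpinb9 and Serpinb6a.

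The 3 members of the chromosome 1 cluster had unlike patterns over the cells, and the 250 bases before their RefSeq starts (build GRCm38.p6) are shown for that reason. Capitals mark TGANTCA (the letters bound by AP-1), TATAAA and CACCC (the letters of Krueppel-like factor sites), searched on both strands with no overlap counted between them. The windows are chr1:106860925-106861174 on the plus strand for Serpinb5, chr1:107052304-107052553 on the minus strand for Serpinb3a and chr1:107511173-107511422 on the plus strand for Serpinb2.
Serpinb5: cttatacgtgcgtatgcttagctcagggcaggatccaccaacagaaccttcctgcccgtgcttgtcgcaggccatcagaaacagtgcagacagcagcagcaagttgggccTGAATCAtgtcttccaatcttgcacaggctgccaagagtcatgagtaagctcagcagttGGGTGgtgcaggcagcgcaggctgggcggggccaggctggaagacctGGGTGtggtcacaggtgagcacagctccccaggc
Serpinb3a: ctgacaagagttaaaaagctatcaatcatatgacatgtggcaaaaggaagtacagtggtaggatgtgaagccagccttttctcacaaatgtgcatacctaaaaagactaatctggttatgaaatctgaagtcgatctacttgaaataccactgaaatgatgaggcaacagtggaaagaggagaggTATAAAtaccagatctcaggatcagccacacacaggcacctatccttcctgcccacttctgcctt
Serpinb2: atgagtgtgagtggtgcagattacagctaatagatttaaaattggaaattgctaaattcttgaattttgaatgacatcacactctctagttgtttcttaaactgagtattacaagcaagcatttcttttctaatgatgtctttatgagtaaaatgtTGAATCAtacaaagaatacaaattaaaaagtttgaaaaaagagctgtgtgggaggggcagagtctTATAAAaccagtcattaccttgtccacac
The Serpinb5 window held TGAATCA 140 bases before the start and CACCC on the minus strand at 81 and 34 bases. In the Serpinb3a window only TATAAA was found, 65 bases before the start. Serpinb2 had TGAATCA 94 bases and TATAAA 29 bases before this start, and 181 and 116 bases before the other start RefSeq gives it, at 107511510. Of 32851 promoters of this length, 6.75% held TGANTCA, 12.4% held TATAAA and 52.0% held CACCC. These are matches of letters, not sites shown to be bound.

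Of 6752 barcodes, 6188 cells were kept (3187 in library 1 and 3001 in library 2), with at least 500 genes and under 20% mitochondrial UMIs. A UMI is a captured RNA molecule. The libraries held 19001107 and 18030874 UMIs, with medians of 5571 and 5886 per kept cell, and they shared 5 barcode sequences. The barcode numbers could not be linked to the labelled replicates. Among marker genes of other cell types, Kera, Col1a1 and Col3a1 (keratocytes), Cdh5 and Kdr (endothelium) and Tyr (melanocytes) were at 0, as was the goblet cell mucin Muc5ac. The immune list summed to 155 UMIs, the melanocyte list to 169, the endothelial list to 8 and the keratocyte list to 7. In the melanocyte list, Pmel had 46 and 59 UMIs and Dct 20 and 42 in libraries 1 and 2.

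Cells were classed by the share of Krt12, the keratin of corneal epithelium, in their Krt12 and Krt15 UMIs, with at least 5 of these. Krt15 marks basal cells of the limbus and conjunctiva. The corneal class (share above 0.8) held 2304 and 1821 cells of libraries 1 and 2, the mixed class (0.4 to 0.8) 161 and 164, and the Krt15 side (under 0.4) 663 and 959. The Krt15 side was split by Gpha2, a glycoprotein hormone subunit used as a limbal marker (at least 2 UMIs), and by the mucosal keratins Krt4, Krt13 and Krt19 (at least 3 UMIs together). This gave a Gpha2 subclass (294 and 450 cells), a mucosal subclass (120 and 158), a subclass with both (110 and 244) and a plain one with neither (139 and 107). Unclassed were 59 and 57 cells. Levels are given as CPM, the usual scaling of a gene's UMIs to all UMIs of the summed cells, and intervals are exact 95% Poisson intervals that cover counting error only.

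Serpinb5 and Serpinb6a were read in most or many cells, Serpinb1a in fewer, and the other members in few. Serpinb5 had 11793 UMIs in library 1 and 9691 in library 2, with a UMI in 84.5% of kept cells. Serpinb6a had 3808 and 2903 UMIs and was seen in 55.85% of cells. Serpinb1a had 559 and 816 UMIs, in 14.8% of cells. Serpinb3a had 506 and 496, in 4.75%. Serpinb2 (205 and 96 UMIs, 3.1% of cells) and Serpinb9 (68 and 68, 2.13%) fell under the limit of 100 UMIs in each library and were too sparse for folds. Their UMIs and shares of cells are given. CPM is given only where the plot of levels by class shows it and for the cells outside the classes.

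The UMIs were spread unlike each other. The 62 cells with most UMIs of a gene, which are 1% of the kept cells, held 4.83% of Serpinb5, 6.65% of Serpinb6a and 21.4% of Serpinb1a. They held 58.4% of Serpinb3a, with 3.41 UMIs per positive cell and up to 44 in a cell. Serpinb2 was likewise concentrated (56.8%, up to 32 in a cell). For Serpinb9 the share was 48.5% with at most 2 UMIs in a cell: it was read 136 times in all, so 62 cells necessarily hold a large part.

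**Figure D1:**
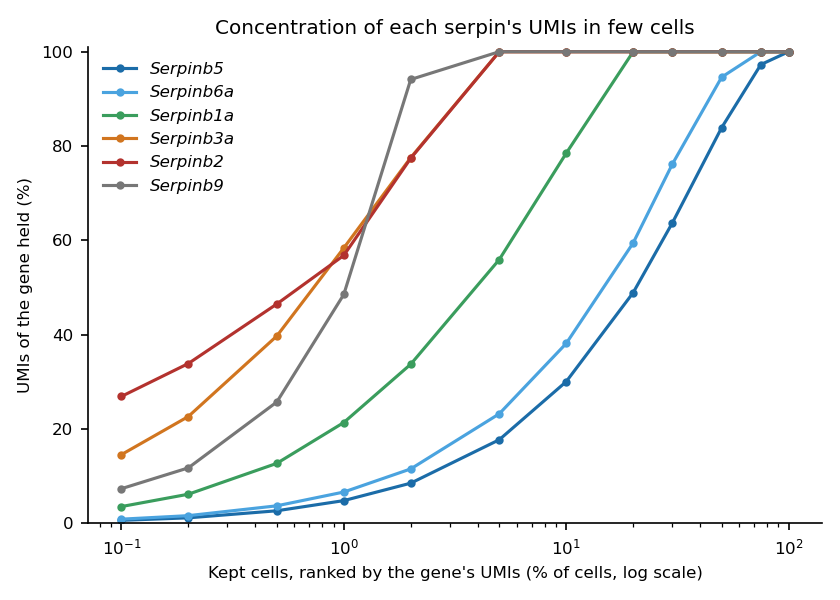
Cumulative share of each gene's UMIs (y, percent) held by the kept cells with most of its UMIs (x, percent of 6188 cells, log scale). At 1% of cells, Serpinb3a and Serpinb2 stand above 56%, Serpinb9 at 48.5%, and Serpinb5 and Serpinb6a under 7%.

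Serpinb5 encodes maspin, a clade B serpin of epithelial cells that does not act as a protease inhibitor. Its level was highest in the corneal class, with 692 CPM in library 1 and 605 in library 2. The mixed class had 499 and 489.8 CPM. The subclasses of the Krt15 side lay between 389 (Gpha2, library 1) and 479 CPM (mucosal, library 1). No value of the Krt15 side or the mixed class reached the corneal level of either library. The log2 ratio of the corneal class to the Krt15 side was 0.68 and 0.50, with a mean of 0.59 ± 0.12 (SD, n = 2 libraries). Within the Krt15 side the neighbours in this order did not separate: the counting intervals of the plain, mucosal and double subclasses overlapped in each library.

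Along the keratin share, the level of Serpinb5 was higher toward the Krt12 end. Cells with a Krt12 share under 0.05 had 445 and 435 CPM. At a share of 0.4 to 0.6 the values were 472 and 493 CPM, and at 0.9 to 0.98 they were 661 and 580.0 CPM. The highest values, 715 and 643 CPM, came at 0.98 to just under 1. Thinned to 2000 UMIs per cell, a Serpinb5 UMI was found in 71.5% and 65.0% of corneal cells and in 55.5% and 54.2% of Krt15-side cells at this equal depth. Unthinned, the shares were 87.5% and 86.9% against 82.7% and 79.1%.

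Serpinb3a belongs to the mouse counterparts of the human squamous cell carcinoma antigens, which inhibit lysosomal cysteine proteases, and it had the steepest differences of the 6. The corneal class had 25 and 20 UMIs, or 1.81 and 1.73 CPM. The mucosal subclass had 241 and 169 UMIs, or 330.1 and 203 CPM, in 38.3% and 36.1% of its cells. The subclass with both markers had 117 and 131 CPM, the plain subclass 131 and 51.7 CPM, and the mixed class 45.7 and 36.3 CPM. The Gpha2 subclass had only 9.41 and 11.7 CPM, on 14 and 25 UMIs. Corneal cells were thus 65.5-fold (library 1) and 49.9-fold (library 2) below the Krt15 side, a mean log2 ratio of -5.84 ± 0.28 (SD, n = 2). The mucosal subclass stood 35.1-fold and 17.4-fold above the Gpha2 subclass.

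Single cells weighed on some Serpinb3a levels. A cell of the plain subclass in library 1 held 44 of its 88 UMIs, and had no mucosal keratin UMI and 9 Krt12 UMIs against 17 of Krt15. Without it the plain subclass of library 1 had 66.5 CPM. In the double subclass of library 2, 1 cell held 32 of 222 UMIs. Poisson intervals take no account of such clumping.

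**Figure D2:**
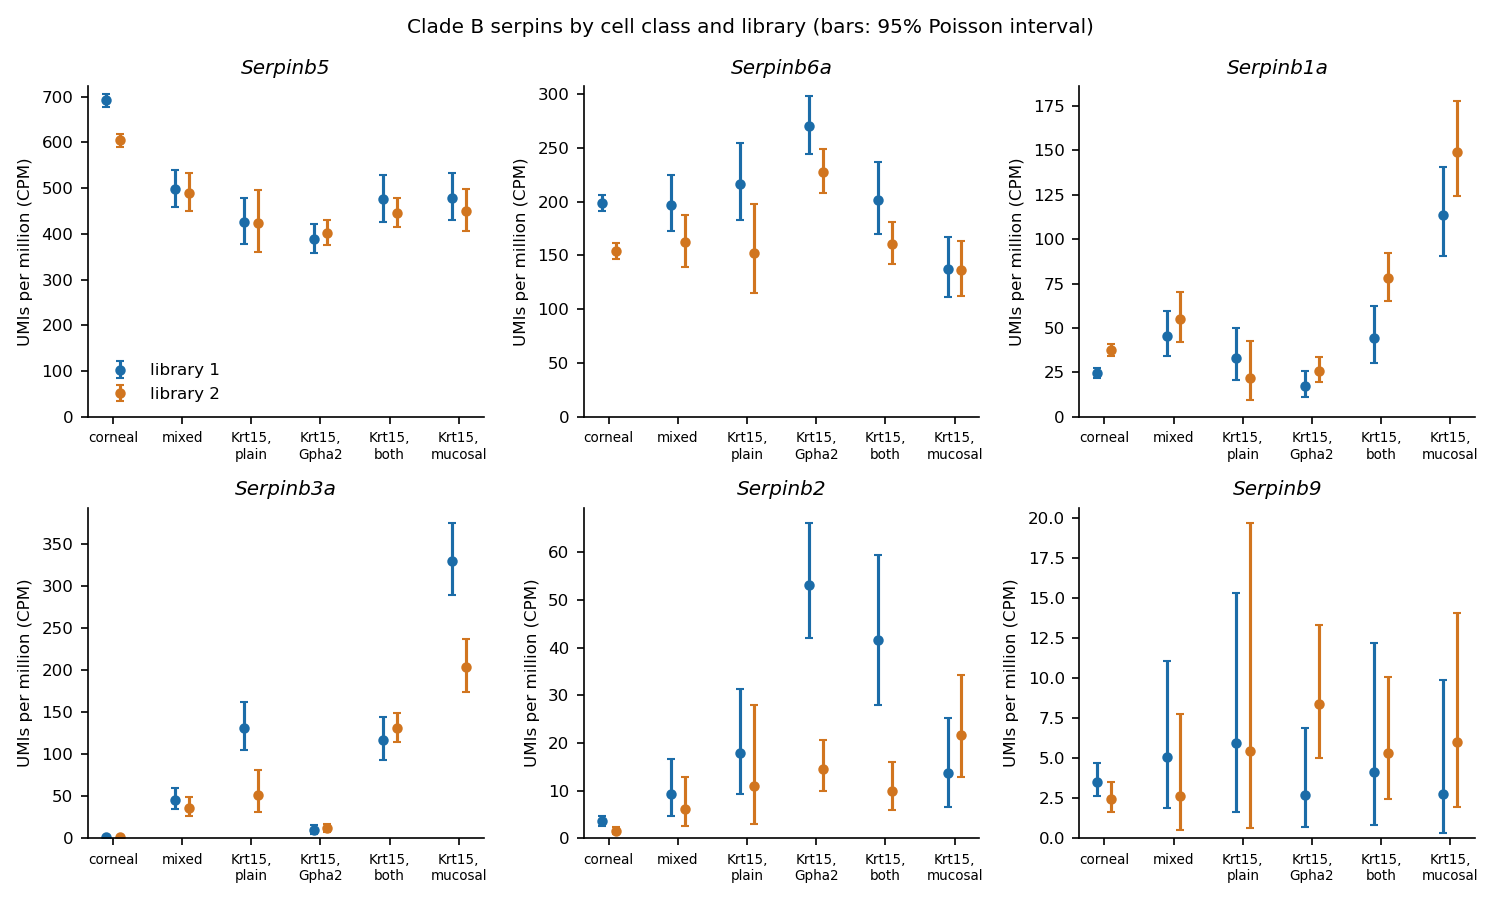
Level of each member (y, CPM, from 0) in the 6 classes (x) of library 1 (blue) and library 2 (orange), with bars for the exact 95% Poisson interval. Serpinb5 is highest in corneal cells, Serpinb3a and Serpinb1a in the mucosal subclass, Serpinb6a in the Gpha2 subclass, and the bars of Serpinb9 are wide everywhere.

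Serpinb3a was lower toward the Krt12 end, but not gradually over the Krt15 side. It stood at 116 and 90.1 CPM under a share of 0.05, at 152 and 108 CPM from 0.2 to 0.4, and at 17.0 and 22.6 CPM from 0.6 to 0.8. Cells with Krt12 alone (share 1) had 2 UMIs in 1532 cells and 5 in 1256 cells. Serpinb5, in the same gene cluster, had its low and high ends the other way round.

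**Figure D3:**
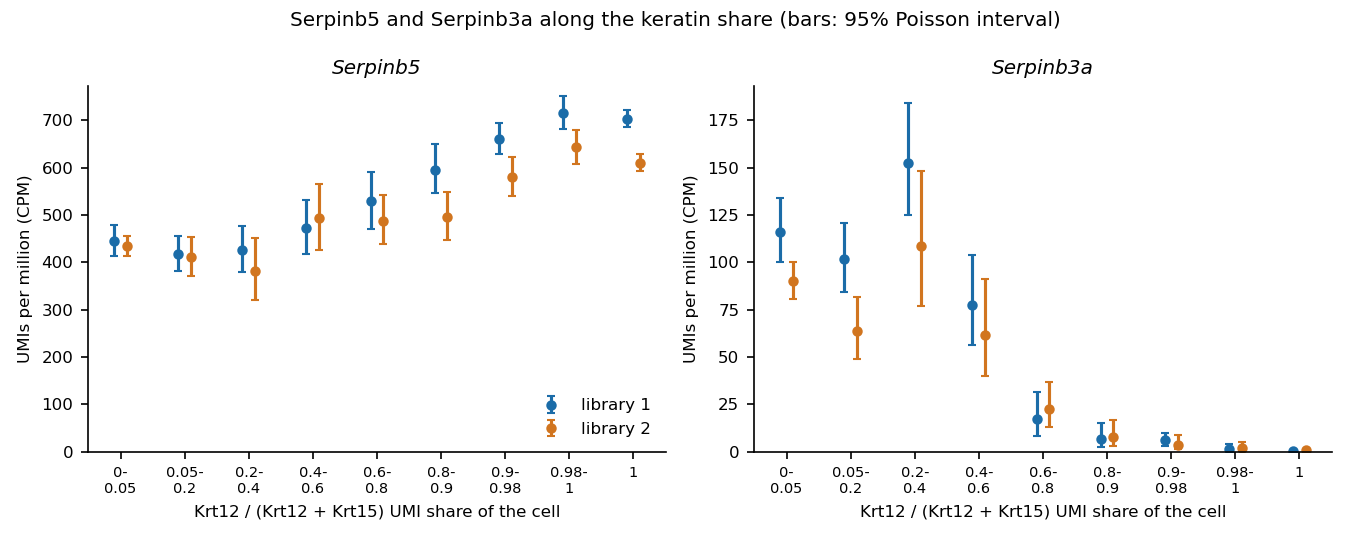
Level of Serpinb5 and Serpinb3a (y, CPM, from 0) in 9 bins of the Krt12 share of Krt12 plus Krt15 UMIs (x), for library 1 (blue) and library 2 (orange), with exact 95% Poisson intervals. Serpinb5 is at 445 and 435 CPM in the first bin and 703 and 609.8 CPM in the last, while Serpinb3a is at 0.239 and 0.674 CPM in the last bin.

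On the Krt15 side, Serpinb3a was higher with more UMIs of Krt4, Krt13 and Krt19. Cells with none of these had 43.7 and 9.96 CPM, those with 1 or 2 had 51.4 and 25.8 CPM, those with 3 to 9 had 104 and 73.7 CPM, and those with 10 or more had 387 and 232 CPM. For the 3 keratins summed, each bin lay above the one before it in both libraries. By Krt13 alone the same bins of library 2 had 18.5, 126, 86.0 and 339.8 CPM of Serpinb3a. The 44-UMI cell is among the cells with none in library 1, which had 6.05 CPM without it. Cells with more keratin UMIs were also deeper, with medians of 4344 and 4379 UMIs per cell in the lowest bin and 7445 and 6387.5 in the highest. CPM is relative to those totals.

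Serpinb1a, an inhibitor of the neutrophil proteases elastase, cathepsin G and proteinase 3, was also highest in the mucosal subclass, at 114 and 149 CPM. The Gpha2 subclass had 17.5 and 25.7 CPM, a log2 difference of 2.62 ± 0.12 (SD, n = 2). The corneal class had 24.6 and 37.5 CPM, the mixed class 45.7 and 54.9, and the double subclass 44.4 and 77.9. Unlike Serpinb3a, Serpinb1a was not near 0 in corneal cells: they stood 1.83-fold and 1.69-fold below the Krt15 side. On the Krt15 side it had 16.3 and 16.9 CPM in cells with no mucosal keratin UMI and 146 and 153 CPM in those with 10 or more.

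The same keratins went with Serpinb1a inside the corneal class. Corneal cells with no mucosal keratin UMI (1990 and 1633 cells) had 17.3 and 30.0 CPM. Those with 3 or more (100 and 60 cells) had 89.2 and 149 CPM. Serpinb3a in these cells was 12.1 and 13.1 CPM, on 11 and 7 UMIs, far under its level in Krt15-side cells with these keratins. Serpinb1a was higher in library 2 than in library 1 in all but the plain subclass, and the log2 difference of library 1 minus library 2 over all kept cells was -0.62 (counting interval -0.78 to -0.47), a difference between 2 single samples.

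Serpinb3a and Serpinb1a were often read in the same cells. Among Krt15-side cells with the mucosal keratins in library 1, a Serpinb1a UMI was found in 34 of 66 cells with Serpinb3a (51.5%, exact 95% interval 38.9 to 64.0%) and in 29 of 164 without it (17.7%, 12.2 to 24.4%). In library 2 the counts were 60 of 115 (52.2%, 42.7 to 61.6%) and 81 of 287 (28.2%, 23.1 to 33.8%). The cells with Serpinb3a were deeper, with medians of 7169 and 6793 UMIs against 5479 and 5633. Thinned to 2000 UMIs, the shares were 24.0% against 8.62% in library 1 and 22.6% against 13.4% in library 2. The intervals then overlapped in both libraries. They were 13.1 to 38.2% and 4.91 to 13.8% in library 1, and 12.9 to 35.0% and 9.87 to 17.6% in library 2. Cells of 1 library are not replicates, and no test was made.

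Serpinb6a, an intracellular inhibitor of trypsin-like proteases and cathepsin G, had the Gpha2 and mucosal subclasses in the opposite order. The Gpha2 subclass had the highest level, 270.2 and 228 CPM, and the mucosal subclass the lowest, 137 and 136 CPM. The log2 difference of mucosal to Gpha2 was -0.98 and -0.74, with a mean of -0.86 ± 0.17 (SD, n = 2). Corneal cells had 199 and 154 CPM and lay between them, 1.10-fold and 1.20-fold below the Krt15 side. The plain subclass had 216 and 153 CPM, the mixed class 197 and 162, and the double subclass 201 and 161. Krt15-side cells with no mucosal keratin UMI had 263 and 227.5 CPM, and those with 10 or more had 120.3 and 118 CPM. Inside the corneal class the libraries went opposite ways. Cells there with no mucosal keratin UMI had 193 and 158 CPM, and those with 3 or more had 212 and 84.1 CPM. Thinned Krt15-side cells with those keratins were also compared. In library 1 a Serpinb6a UMI was found in 9 of 50 cells with Serpinb3a (18.0%) and 43 of 174 without (24.7%). These intervals overlapped (8.58 to 31.4% and 18.5 to 31.8%). In library 2 the counts were 6 of 62 (9.68%) and 96 of 321 (29.9%), with intervals apart (3.63 to 19.9% and 24.9 to 35.2%).

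**Figure D4:**
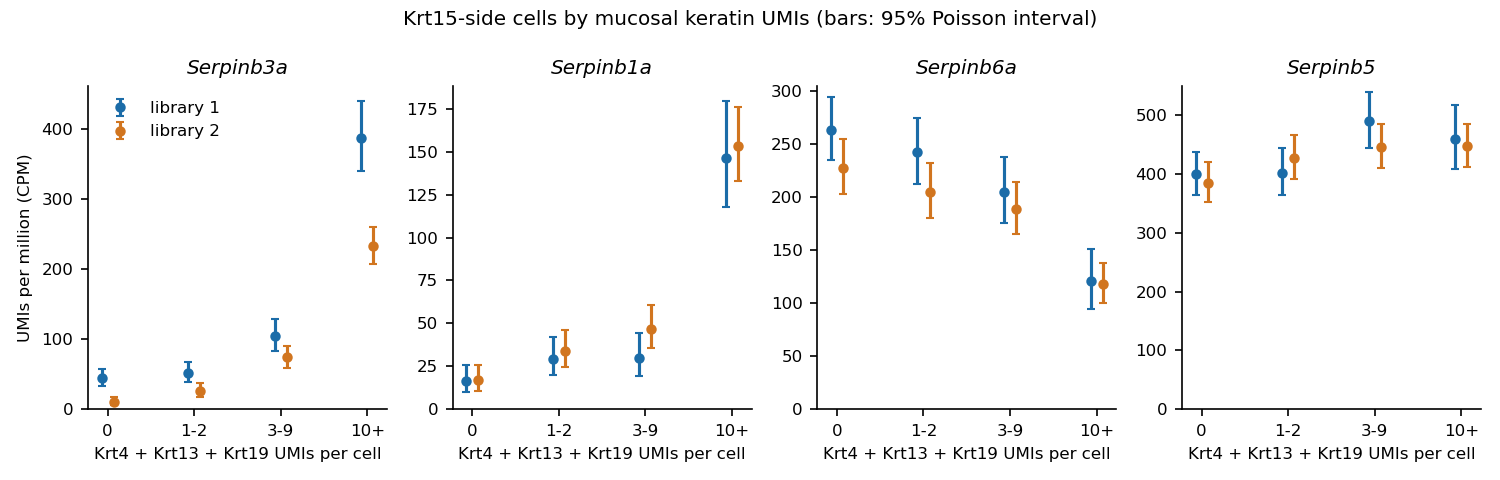
Level of 4 members (y, CPM, from 0) in Krt15-side cells with 0, 1 to 2, 3 to 9 and 10 or more UMIs of Krt4, Krt13 and Krt19 (x), for library 1 (blue) and library 2 (orange), with exact 95% Poisson intervals. In the last bin Serpinb3a has 387 and 232 CPM and Serpinb1a 146 and 153 CPM, their highest values, Serpinb6a has 120.3 and 118 CPM, its lowest, and Serpinb5 lies between 385 and 490.4 CPM throughout.

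Serpinb2 encodes plasminogen activator inhibitor type 2, which inhibits urokinase. The Krt15 side gave 131 and 70 of its 205 and 96 UMIs, with a UMI in 2.96% and 2.04% of thinned cells, against 0.687% and 0.370% of corneal cells. In the Gpha2 subclass it had 79 and 31 UMIs, and 1 library 1 cell held 32 of the 79. Serpinb9, an inhibitor of granzyme B, was read 49 and 28 times in the corneal class and 13 and 34 times on the Krt15 side. After thinning, 0.834% and 0.863% of corneal cells and 0.623% and 1.47% of Krt15-side cells held a UMI, with overlapping counting intervals.

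A check of free RNA used 18 cells with at least 3 UMIs of the immune list, at a median of 1936 UMIs. They held 0 UMIs of Serpinb2 and of Serpinb3a, and 1 each of Serpinb1a, Serpinb5 and Serpinb9, with 3 of Serpinb6a. A count of 0 here limits the share of such cells with a UMI to 16.7% (3 counts over the 18 cells). So few and shallow cells bound the background weakly, and no share of a class was read against it.

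By a rule of likeness, the genes closest in Pearson correlation of log2(CPM + 1) over the 6 class means were named among 9059 genes. For Serpinb5 they included Nuak2 (r = 0.998) and Atp6v1e1 (0.994). For Serpinb3a they were Gorasp2 (0.995), Dcbld1 (0.991) and Acbd3 (0.988). For Serpinb1a they were Gltp (0.994), Ywhaz (0.993) and Rab11fip1 (0.990225). For Serpinb6a they were Aplp2 (0.993), Tmem132a (0.993) and Tmem107 (0.989555). Serpinb1a and Serpinb6a had r = -0.84 with each other, and Serpinb1a and Serpinb3a 0.70. The 6 points share libraries and depth, so these values describe the class means only. The genes named by this rule are the highest of 9059 over only 6 points, and r takes no account of the size of a change. Gorasp2 had 34.4 CPM in corneal cells and 50.3 in the mucosal subclass. Serpinb3a had 1.81 and 1.73 CPM in the corneal cells of libraries 1 and 2, against 330.1 and 203 in the mucosal subclass.

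A set of 3 splits of the corneal class asked whether the members differ among Krt12 cells, on lists that neither the rule nor the members entered. In each library the highest and lowest 1 in 3 cells were summed and tested over all genes with edgeR's quasi-likelihood test, with library as a block (4 sums, 1 residual degree of freedom) and a Benjamini-Hochberg threshold of 0.05. Each count of members is set beside the share of all genes called.

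Across the cycle, no member passed the test. The first split ranked cells by G2/M over S phase RNA, and 27.4% of 10564 genes passed. None of the 4 members tested did. Serpinb5 stood at 718 CPM on the S side and 673 on the G2/M side in library 1, and at 596 and 628 in library 2 (log2 difference -0.08, SE 0.07, edgeR adjusted p 0.371). Serpinb6a had -0.11 (SE 0.09, adjusted p 0.378), with opposite signs in the libraries, at -0.26 and 0.21. Serpinb1a had -0.07 (SE 0.15, adjusted p 0.775), at 26.6 and 26.2 CPM in library 1 and 37.7 and 38.3 in library 2. Serpinb2 and Serpinb3a had too few UMIs, 20 and 11, and 21 and 9, over both sides of libraries 1 and 2.

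Outside the 6 members, Serpinb8 was higher on the G2/M side. Serpinb8, which inhibits furin-like proteases in biochemical assays, went from 18.2 CPM on the S side to 86.7 on the G2/M side in library 1, and from 24.2 to 107 in library 2. The log2 difference was 2.12 (SE 0.13, edgeR adjusted p 2.39e-53), higher in 2 of 2 libraries, and it passed the threshold in each of 9 alternative settings. It lies at the far end of the chromosome 1 cluster (107590006 to 107610484, plus strand), next to Serpinb2. By class it had 45.3 and 56.1 CPM in corneal cells and 49.3 and 62.4 CPM on the Krt15 side. Serpinb11 fell by 0.97 (SE 0.21, adjusted p 6.08e-05), with 58 against 52 UMIs in library 1 and 84 against 32 in library 2, and single-library log2 differences of -0.27 and -1.55. It passed in 6 of 9 alternatives (adjusted p from 4.81e-05 to 0.284). Mucosal keratin RNA was higher on the S side, at 144 against 55.1 CPM and 113 against 29.7 CPM, and among corneal cells with no UMI of it the difference was -0.64 and did not pass (edgeR adjusted p 0.0898).

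The second split ranked corneal cells by the alarmin list (Krt16, Krt6a, Krt6b, S100a8 and S100a9), RNAs of stressed or wounded epithelium. Of 10758 genes 3.26% passed. Serpinb1a was among them, and Serpinb3a, which entered the test only through the high cells, is given apart. Serpinb1a had 13.8 CPM in the low cells and 37.8 in the high cells of library 1, and 20.2 and 61.5 in library 2. The log2 difference was 1.60 (SE 0.19, edgeR adjusted p 0.00154), higher in 2 of 2 libraries. It passed in 8 of 9 alternatives, with an adjusted p of 0.110 without the library block. The high cells also held more mucosal keratin RNA, at 224 against 7.19 CPM and 198 against 9.31 CPM. Among corneal cells with no UMI of these keratins the Serpinb1a difference was 0.94 (edgeR adjusted p 0.00353). This setting was chosen after the data were seen.

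The Serpinb3a call rested on few molecules. Library 1 had 0 UMIs in the low and 24 in the high cells, at least 5.09-fold higher against a floor of 3 counts per library. In library 2 the counts were 3 and 16, and their ratio of 6.66 has a counting interval from 1.91 to 35.7. The edgeR adjusted p was 0.0311, and 3 of the 6 alternatives in which it could be tested passed. In the filtered fits the gene entered only through its high side, so a pass there is no support for the difference. In thinned cells, without the 3% of cells with most UMIs and among corneal cells with no mucosal keratin UMI it was too low to be tested. Serpinb5 stood at 602 and 788 CPM in library 1 and 540 and 685 in library 2 (log2 difference 0.43, SE 0.16, adjusted p 0.210). Serpinb6a went from 142 to 252 CPM in library 1 and from 170 to 128 in library 2, in opposite directions, and did not pass (adjusted p 0.714). Serpinb2 had 8 and 31, and 6 and 8 UMIs, and Serpinb9 14 and 18, and 11 and 12; neither passed.

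Serpinb11, outside the 6, was also higher in the alarmin-high cells. It had 5 UMIs in the low and 135 in the high cells of library 1, a ratio of 17.2 (counting interval 7.18 to 53.7). Library 2 had 3 and 188, a ratio of 78.3 (26.4 to 383). The log2 difference passed in each of 9 alternatives (5.28, SE 0.42, edgeR adjusted p 0.000147), but the gene entered the test through its high side. Among corneal cells with no mucosal keratin UMI it went from 1.52 to 13.1 CPM in library 1, on 5 and 59 UMIs. In library 2 it went from 0.567 to 23.7 CPM, on 3 and 90 UMIs. The log2 difference of 4.30 passed (edgeR adjusted p 6.92e-12), but the gene entered this fit through its high side as well. Passes after that filter are no support for the difference. Serpinb8 had -0.52 (adjusted p 0.251). High cells were deeper than low cells, with medians of 7448 against 4937 UMIs and 6934 against 5982. In library 2 the low side held the 1028 cells with no UMI of the list.

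**Figure D5:**
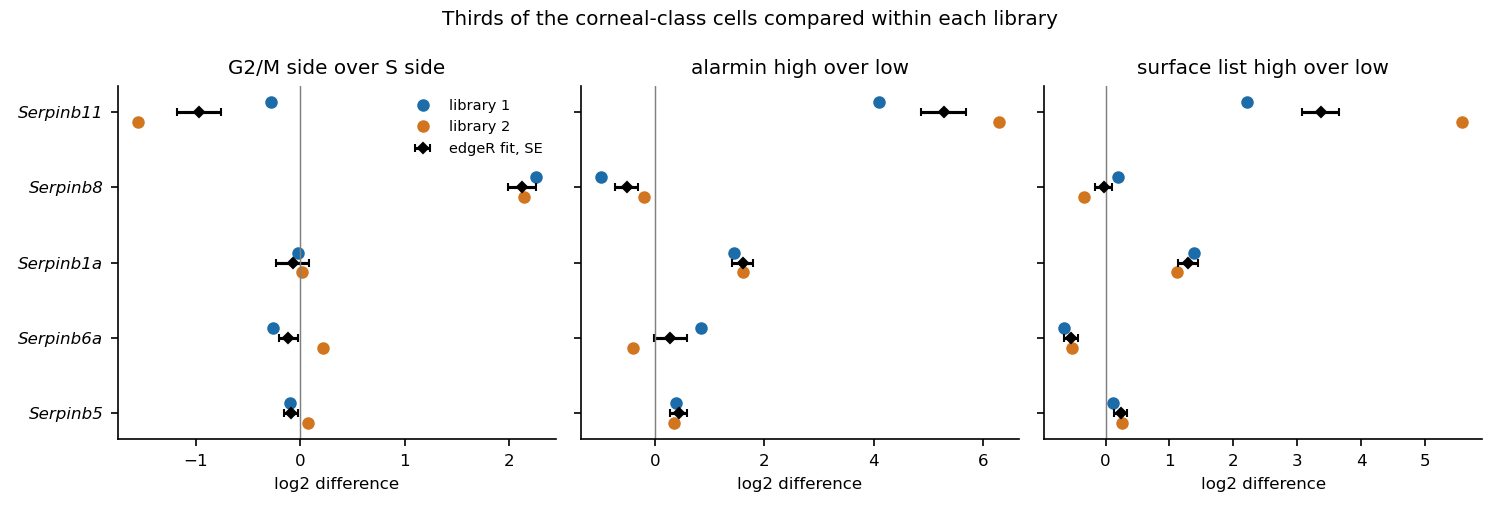
Log2 differences (x) of 5 clade B serpins between sides of the 3 splits of corneal cells, in library 1 (blue) and library 2 (orange), with the edgeR fit and its SE in black. Serpinb8 stands near 2 in the cycle split alone, Serpinb11 and Serpinb1a are to the right of 0 in the alarmin and surface splits, and Serpinb6a has opposite signs in the libraries in the cycle and alarmin splits.

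The third split ranked corneal cells by 12 RNAs of the differentiating surface (such as Slurp1, Ecm1, Cldn4 and Muc4). Of 10604 genes 13.9% passed, and 2 of the 5 members tested were among them, in opposite directions. Serpinb1a rose from 15.3 to 39.9 CPM in library 1 and from 25.5 to 55.4 in library 2 (log2 difference 1.29, SE 0.16, edgeR adjusted p 1.46e-14, higher in 2 of 2 libraries). Serpinb6a fell from 238 to 152 CPM and from 182 to 126 (log2 difference -0.54, SE 0.11, adjusted p 8.49e-06, lower in 2 of 2). Mucosal keratin RNA was again higher on the high side, at 245 against 30.8 and 203 against 18.3 CPM. Without the cells that held a UMI of it, 518 genes passed in place of 1478. Serpinb1a then differed by 0.60 and did not pass (edgeR adjusted p 0.0677). It was still higher in both libraries, going from 13.2 to 21.2 CPM in library 1 and from 26.2 to 36.5 in library 2. Serpinb6a differed by -0.55 and passed (edgeR adjusted p 0.00573). The limbal RNAs were lower on the high side too: Gpha2 went from 60.6 to 18.8 CPM and from 95.1 to 46.6 CPM, and Krt15 from 264 to 211 and from 338 to 219 CPM. Their part in the Serpinb6a difference was not tested.

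Serpinb6a kept its direction in each of 9 alternatives and passed in 7, with an adjusted p of 0.0667 in DESeq2 and 0.341 in edgeR without the block. Serpinb5 had 649.6 and 701 CPM in library 1 and 535 and 643 in library 2, and did not pass (log2 difference 0.24, SE 0.10, edgeR adjusted p 0.100051). Serpinb2 had 15 and 28, and 8 and 8 UMIs, and Serpinb9 23 and 13, and 16 and 8; neither passed. Serpinb11 was higher in both libraries, from 21 to 93 UMIs and from 3 to 167 (log2 difference 3.37, SE 0.29, edgeR adjusted p 1.7e-17). It passed in 5 of 9 alternatives (adjusted p from 8.44e-20 to 0.169). As the low side of library 2 held 3 UMIs, Serpinb11 entered this test in part through its high side. A pass is therefore not read as support for the difference. Without the cells that held a mucosal keratin UMI it went from 4.49 to 8.88 CPM in library 1, on 17 and 31 UMIs. In library 2 it went from 0.984 to 22.2 CPM, on 3 and 76 UMIs. Serpinb8 did not pass (-0.03, adjusted p 0.938).

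Cells with an interferon response, defined by at least 5 UMIs of 12 interferon-stimulated genes, numbered 114 and 468 in the corneal class. Serpinb1a stood at 21.8 CPM in these and 24.8 in the other corneal cells of library 1, and at 50.2 and 31.5 in library 2. Serpinb5 had 697 and 692 CPM in library 1 and 695 and 562 in library 2. Serpinb9 was read 2 and 14 times in the responding cells. In library 1 the Serpinb1a value of the responding cells rested on 18 UMIs, and its counting interval (12.9 to 34.5 CPM) held the value of the other cells. In library 2 the intervals were apart (43.2 to 57.9 and 27.7 to 35.6 CPM). Mucosal keratin RNA was higher in the responding cells of both libraries, at 547 against 76.9 CPM and 160 against 46.8 CPM. Its part in these values was not tested.

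The proteases and inhibitors around the serpins, a list of 42 genes, were counted in the same splits. On the G2/M side 1 of 30 tested was higher and 13 were lower (median log2 difference -0.31 against 0.01 over all genes). The lower genes included Timp1 (-1.84), an inhibitor of metalloproteinases, and Casp8 (-0.82), an initiator caspase of cell death. With the alarmin list, 6 of 28 were higher and 1 lower (median 0.38 against 0.01). Plaur, the urokinase receptor (2.77), and the stefins Stfa1 (2.57) and Stfa3 (2.11), inhibitors of cysteine cathepsins, were higher, and Timp3 (-1.24) was lower. With the surface list, 4 of 30 were higher, among them Cst6 (2.29), a cystatin, and Tmprss11d (1.46), a membrane serine protease. The 7 lower genes included Timp1 (-1.68) and Ctsz (-0.99), a lysosomal cysteine protease. Slpi, lower on the G2/M side, also passed the cycle split, but library 2 had 0 UMIs on that side, so no fold is given. All of these passed the edgeR threshold. The shares of all genes called upward and downward were 12.3% and 15.1%, 2.7% and 0.567%, and 8.71% and 5.22% in the 3 splits.

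Of the 20 clade B genes outside the 6, Serpinb8 (854 and 1022 UMIs) and Serpinb11 (255 and 316) had at least 100 UMIs in each library, 7 had fewer and 11 had none. Serpinb11, which lies between Serpinb3a and Serpinb2, was also highest in the mucosal subclass, at 54.8 and 62.5 CPM and stood at 11.8 and 16.7 CPM in corneal cells. Few 3′ sequences of the members were shared with copies: 1.76% of the 60-base words in the last 400 bases of Serpinb1a transcripts also occurred in Serpinb1c and 0.293% of those of Serpinb6a in Gm8436 or Serpinb6c. The other 4 members had none.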

How the data were processed

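RNA of sorted GFP-positive cells was read in 2 libraries of 1 group. The deposited matrix holds whole-number UMI counts of both libraries, and, per the file headers, comes from 10x software (3.1.0). Per the submitters' processing notes, Cell Ranger 3.1.0, Seurat 5.0.0 and build GRCm38 (mm10) were used; for the annotation, cell calling and any equalising of depth the entry is: not given in the sources used here. Barcode endings 1 and 2 were taken as libraries 1 and 2, with no link to the labelled replicate numbers.

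From the counts, cells with at least 500 genes and under 20% mitochondrial UMIs were kept, and no doublet caller was run (an alternative left out the 3% of cells with most UMIs). UMIs were summed per class and library. Counting intervals are exact (Poisson or Clopper-Pearson, 95%) and cover counting error only. Shares of cells were compared after thinning to 2000 UMIs (5526 of 6188 cells were deep enough). Splits were fitted with edgeR 4.0.16 (quasi-likelihood, robust, TMM, filterByExpr, library as a block) in R 4.3.3, with DESeq2 1.42.0 as an alternative. The block is used because both sides of a library come from 1 sample. Genes of the splitting list and of the class rule left the table after library sizes were set. The fit was also run on simulated counts with the same dispersion for all genes and changes planted only in genes that were not sparse. That run does not speak for sparse or clumped genes, such as some members. With library as a block, p-values measure how far the difference between sides varied between 2 libraries, with dispersion estimated over all genes. As the labels do not say that the replicates came from separate animals, that variation may be technical.

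Named were the members, other clade B genes with at least 100 UMIs in each library, genes of the protease list past the threshold, and the 3 genes most like each member that was not too sparse; some genes these rules name are not reported here. Members, lists, classes and splits were chosen with earlier results of these data known, and the bins of keratin UMIs, the pairs of genes read in 1 cell and the setting without mucosal keratin cells after seeing these values.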

Additional observations from a re-analysis of the deposited data

Results flagged for a closer look

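Kept cells with fewer than 5 Krt12 and Krt15 UMIs entered no class, and clade B RNA was read in them above the limit that a count of 0 allows. There were 59 such cells in library 1 and 57 in library 2, with medians of 1573 and 1331 UMIs. For libraries 1 and 2, Serpinb5 stood at 471 and 125 CPM, on 64 and 11 UMIs. Serpinb6a stood at 213 and 171 CPM, on 29 and 15 UMIs. Serpinb2 stood at 103 CPM in library 1, on 14 UMIs in 5 cells, 7 of them in 1 cell. The immune list gave 33 and 100 UMIs in these cells, of 155 in all kept cells, and Krt14, a basal keratin, stood at 8266 and 3178 CPM. Their part in the serpin values was not tested.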

How the results depend on the processing

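Of the 4 log2 ratios of the corneal class to the Krt15 side, all kept their sign. Serpinb1a moved to -0.44 in cells thinned to 2000 UMIs, Serpinb3a to -6.13 with class limits of 0.3 and 0.9, and thinning left Serpinb3a under 10 UMIs and so without a value. Single libraries gave -0.88 and -0.76 for Serpinb1a and -6.03 and -5.64 for Serpinb3a. Genes passing in the cycle split numbered 2891, but 557 with DESeq2, 482 with no replicate block and 1294 in thinned cells. In the alarmin split they numbered 351, but 140 with DESeq2, 923 with no filter, 35 with no replicate block and 172 when cells were split at the median. In the surface split they numbered 1478, but 216 with DESeq2, 39 with no replicate block, 895 when split at the median, 462 in thinned cells and 518 without mucosal keratin cells. Fewer genes are tested in thinned cells; the cause of the other shifts was not tested. Without TMM factors the cycle calls were 1794 higher and 1216 lower, against 1297 and 1594, and the surface calls 802 and 750, against 924 and 554. DESeq2 gave 172 and 44 in the surface split, and higher and lower alarmin calls without the filter numbered 630 and 293, in thinned cells 313 and 159 and without mucosal keratin cells 283 and 121, against 290 and 61. Serpinb1a in the cycle split, which never passed, turned to 0.00088 without TMM factors and to 0.15 without mucosal keratin cells. Without the replicate block Serpinb1a and Serpinb3a in the alarmin split and Serpinb1a and Serpinb6a in the surface split no longer passed. Serpinb3a in the alarmin split also missed the threshold with DESeq2 (adjusted p 0.256) and when split at the median (edgeR adjusted p 0.0636). Depth limits Serpinb2 and Serpinb9 in all classes, and Serpinb3a in corneal cells.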
